A study of Homo sapiens with 24 samples.

Results

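Expression of 40 genes of the ATF4 amino acid stress program was followed in PANC-1 and HEK293T cells grown in 4 culture formats. The genes were taken by symbol from a list of stress regulators, amino acid synthesis enzymes, amino acid transporters and secreted stress factors, and all 40 were found among the 26450 genes of the deposited table. They comprise 12 regulators, 12 synthesis enzymes, 10 transporters and 6 genes for secreted factors, a lipoprotein receptor and a tRNA exporter. The tumour line PANC-1 has a pancreatic duct origin and epithelial character, and HEK293T derives from embryonic kidney and carries the SV40 large T antigen. Each line was grown in DRCC (capillary containers rotating about 2 axes) at a speed of 30 rpm, in DRCC at 1 rpm, in AggreWell microwell plates, or as a flat layer (2D), with 3 libraries in each of the 8 groups. No group carries a gene deletion or a drug treatment in the labels, and days in culture, medium and cell density are not given in the sources used here. Since no label describes the 3 replicates of a group as separate cultures, p-values reflect library-to-library spread that could be technical.

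ATF4 is a basic leucine zipper transcription factor made mainly when translation is slowed. Kinases that sense uncharged tRNA, unfolded protein in the endoplasmic reticulum, double-stranded RNA or lack of haem phosphorylate the initiation factor eIF2, which lowers general protein synthesis and favours translation of the ATF4 and ATF5 messages over short upstream reading frames. ATF4 then pairs with C/EBP factors on DNA and activates genes that make or import amino acids, together with feedback regulators and secreted hormones. Much of the control of ATF4 is therefore on translation, which RNA levels do not measure.

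ATF4 and C/EBP factors bind a composite site whose core is TGATGNAA. RefSeq promoters (build GRCh38.p14) were matched by symbol for 30 of the 40 genes, and the 250 bases before each start site were searched for TGATGNAA and, on the other strand, TTNCATCA. The core was present for 6 of the 30 genes (ASNS, CHAC1, CEBPG, SLC1A5, JDP2 and FGF21), and for 1061 of all 27305 genes with such a promoter (3.89%). A match is a run of letters and not a measured binding site, and for the other genes these letters are not in this window. The stretches of the 4 genes with a match and an expression high enough for testing in both lines are shown 5′ to 3′ on the strand of the gene, with the core in capitals. They come from chr7:97872414-97872531, minus strand, from chr15:40953221-40953324, plus strand, from chr19:33374016-33374112, plus strand, and from chr19:46784849-46784966, minus strand.
ASNS: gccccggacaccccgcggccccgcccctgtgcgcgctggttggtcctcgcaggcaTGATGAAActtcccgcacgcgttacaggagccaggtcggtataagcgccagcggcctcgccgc
CHAC1: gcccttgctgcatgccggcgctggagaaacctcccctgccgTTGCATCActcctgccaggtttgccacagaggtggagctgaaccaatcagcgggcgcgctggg
CEBPG: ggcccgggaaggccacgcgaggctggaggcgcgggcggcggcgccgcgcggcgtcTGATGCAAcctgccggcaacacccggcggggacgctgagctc
SLC1A5: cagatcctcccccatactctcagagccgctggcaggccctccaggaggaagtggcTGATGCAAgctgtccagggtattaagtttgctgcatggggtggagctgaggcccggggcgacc
The core ended 61 bases before the start site in ASNS, 202 in CHAC1, 35 in CEBPG and 90 in SLC1A5. At 30 rpm against 2D their log2 changes in PANC-1 and in HEK293T were 2.19 and 3.59 for ASNS, -0.19 and 2.12 for CHAC1, 0.44 and 1.47 for CEBPG, and 0.28 and -0.12 for SLC1A5.

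Libraries held 32021638 to 39556154 fragments, recovered from the FPKM values (fragments per kilobase of transcript, scaled to library depth). Line identity was checked with marker lists. The mean log2(FPKM + 1) of 8 PANC-1 markers was 4.6 to 5.37 in PANC-1 libraries and 0.605 to 1.11 in HEK293T libraries, and that of 5 HEK293T markers was 1.03 to 1.32 in PANC-1 and 2.54 to 3.15 in HEK293T. Mitochondrially encoded genes took 1.57% to 1.62% of PANC-1 fragments at 30 rpm, 2.31% to 2.45% at 1 rpm, 4.25% to 4.31% in AggreWell and 4.10% to 4.68% in 2D, and their part in the results was not tested beyond refitting without them. In HEK293T the ranges were 4.16% to 4.33% at 30 rpm, 3.38% to 3.56% at 1 rpm, 3.44% to 3.58% in AggreWell and 4.70% to 4.87% in 2D. Each library is bulk RNA, so more transcript per cell and more cells with the transcript cannot be told apart. Libraries were also compared within their group by a chi-square over the fragments of all genes, divided by the number of genes. PANC-1 2D replicate 1 (8.27 and 9.23), HEK293T 2D replicate 2 (8.73 and 9.81) and HEK293T 1 rpm replicate 2 (6.76 and 7.18) stood apart, where the other 18 pairs had 2.81 to 4.46.

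Summed over the 40 genes, expression was highest in the rotating containers. In PANC-1 the sum was 2264 to 2277 FPKM at 30 rpm, 1773 to 1791 at 1 rpm, 1194 to 1207 in AggreWell and 1252 to 1274 in 2D. In HEK293T it was 2240 to 2294 FPKM at 30 rpm, 2421 to 2455 at 1 rpm, 1454 to 1480 in AggreWell and 1584 to 1621 in 2D. The libraries of neighbouring formats did not overlap in either line, and the order of the rotation speeds was opposite, with 30 rpm above 1 rpm in PANC-1 and below it in HEK293T.

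Against 2D culture, most of these genes rose at 30 rpm in both lines and at 1 rpm in HEK293T. At 1 rpm in PANC-1 the share that rose was near that of all genes, and in AggreWell most fell in PANC-1. Changes were tested with limma on log2(FPKM + 1) for genes with at least 1 FPKM in at least 3 libraries of a line, which kept 34 of the 40 genes in PANC-1 and 37 in HEK293T, and genes with a Benjamini-Hochberg adjusted p under 0.05 were called. Some genes passed only through the format in which they were high, so the counts describe those tested and not all 40. A rise of such genes was partly set by the filter, here and in the counts by role below. In PANC-1 at 30 rpm, 25 of 34 rose and 3 fell, where 53.6% of all 11585 tested genes rose and 32.2% fell, and 14 rose by at least 2-fold, where 10.9% of all genes did. At 1 rpm 19 rose (52.3% of all genes) and 11 fell (33.9%), with 8 at least 2-fold higher (10.5%). In AggreWell 6 rose (45.9%) and 21 fell (24.1%), none by 2-fold (1.22% of all genes at least 2-fold higher and 0.224% lower).

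In HEK293T at 30 rpm, 33 of 37 rose and 4 fell (49.6% and 35.5% of all 12548 genes), with 12 at least 2-fold higher (11.6%). At 1 rpm 33 rose and 3 fell (53.1% and 31.7%), with 15 at least 2-fold higher (12.2%). In AggreWell 18 rose and 13 fell (48.6% and 26.8%), with 2 at least 2-fold higher (5.43%). The median log2 change of the tested members in PANC-1 was 0.84 at 30 rpm, 0.35 at 1 rpm and -0.24 in AggreWell, beside 0.17, 0.15 and 0.10 for all genes. In HEK293T it was 0.64, 0.79 and 0.13, beside 0.13, 0.18 and 0.12. Median-ratio scaling moved the median of all genes to between -0.05 and -0.02 in these 6 comparisons and that of the members in PANC-1 to 0.61 at 30 rpm, 0.16 at 1 rpm and -0.38 in AggreWell, and in HEK293T to 0.46, 0.56 and -0.04. Under that scaling 23 members rose and 10 fell in PANC-1 at 30 rpm, and 17 rose and 15 fell at 1 rpm. It gave 4 and 24 in AggreWell in PANC-1. In HEK293T it gave 27 and 6 at 30 rpm, 27 and 5 at 1 rpm, and 15 and 16 in AggreWell. With mitochondrially encoded genes left out, 23 rose and 10 fell in AggreWell in HEK293T. The shares of all genes called were not counted for these refits. Without PANC-1 2D replicate 1, which stood apart, 25 rose and 2 fell at 30 rpm, 19 and 12 at 1 rpm and 6 and 22 in AggreWell. Without HEK293T 2D replicate 2 the numbers were 31 and 4, 33 and 3, and 17 and 13, and without HEK293T 1 rpm replicate 2 they were 34 and 3 at 1 rpm. The 3 comparisons of a line with 2D share the same 2D libraries.

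Of the 33 members tested in both lines, 23 rose in both at 30 rpm and 18 at 1 rpm, where 34.1% and 37.5% of the 10752 genes tested in both lines did. In AggreWell 4 rose and 11 fell in both lines (32.9% and 16.1% of all genes).

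**Figure D1:**
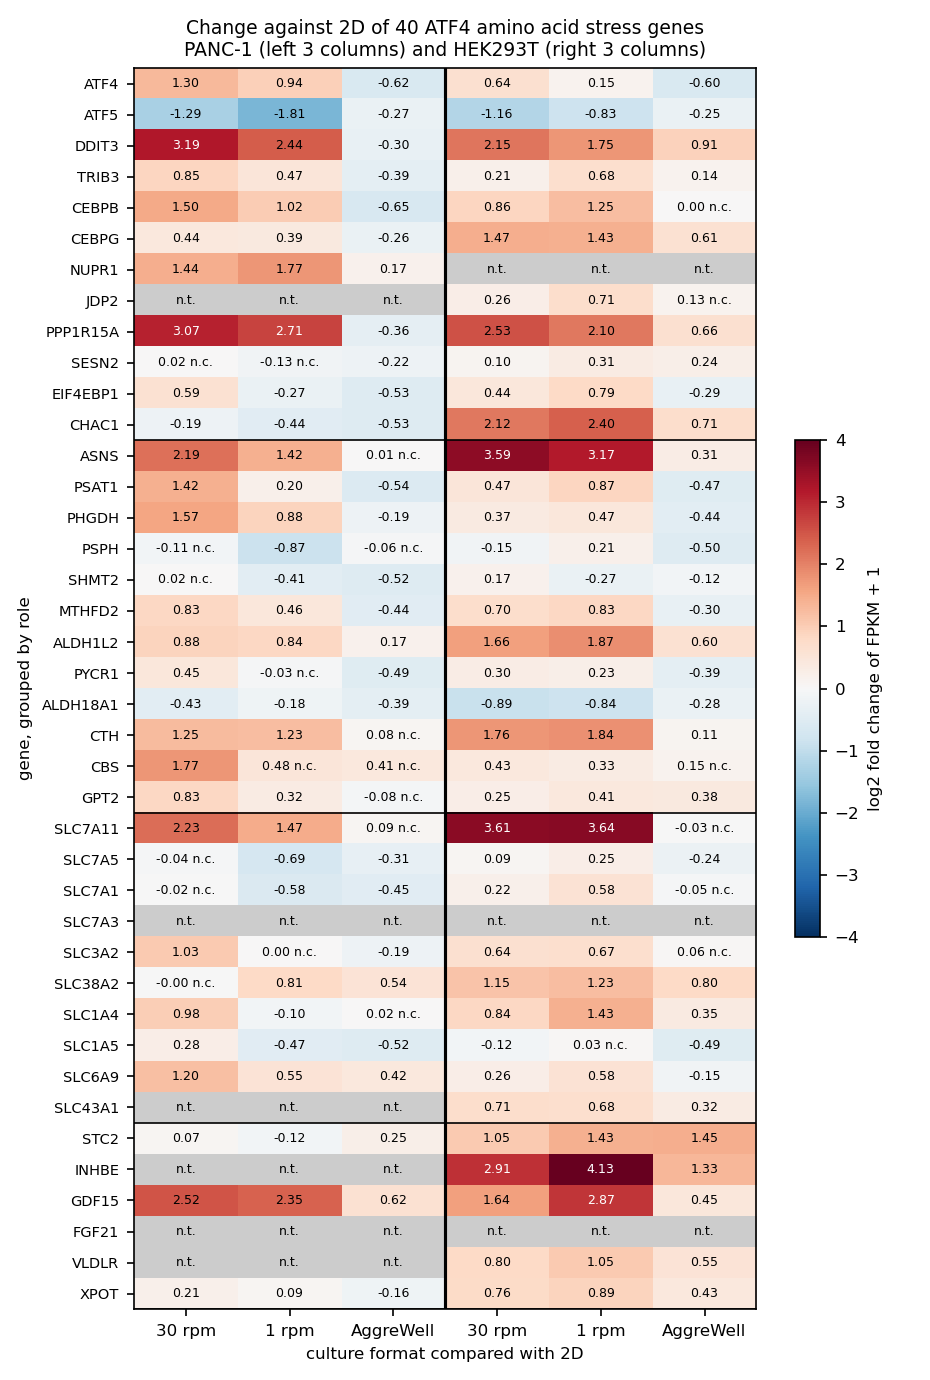
Heat map of the log2 fold change of FPKM + 1 against 2D (colour and printed value) for the 40 genes (rows, grouped by role) in DRCC at 30 rpm, at 1 rpm and in AggreWell, for PANC-1 (left) and HEK293T (right). Grey cells marked n.t. were not tested and n.c. marks values not called. The DRCC columns are mostly red in both lines and the AggreWell columns are pale, while ATF5 is blue throughout.

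Among the regulators, ATF4 itself rose in DRCC and fell in AggreWell in both lines, although its rise at 1 rpm in HEK293T turned with median-ratio scaling. At 30 rpm DDIT3 and PPP1R15A rose by more than any other regulator in PANC-1. Of 11 regulators tested per line, 8 rose and 2 fell at 30 rpm in PANC-1 (53.6% and 32.2% of all genes) and 10 rose and 1 fell in HEK293T (49.6% and 35.5%). At 1 rpm 7 rose and 3 fell in PANC-1 (52.3% and 33.9%), and 10 and 1 in HEK293T (53.1% and 31.7%). In AggreWell 1 rose and 10 fell in PANC-1 (45.9% and 24.1%), and 6 and 3 in HEK293T (48.6% and 26.8%).

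ATF4 had 89.5, 90.8 and 91.1 FPKM at 30 rpm, 69.3, 68.7 and 72.4 at 1 rpm, 22.2, 23.5 and 24 in AggreWell and 36.8, 36.2 and 35.4 in 2D in PANC-1. HEK293T libraries had 162, 161 and 160.2 FPKM at 30 rpm, 117, 112 and 115 at 1 rpm, 68.1, 66.7 and 67.5 in AggreWell and 105, 99.8 and 104 in 2D. In both lines all 30 rpm libraries were above all 1 rpm libraries, those above 2D, and AggreWell was lowest. The log2 change against 2D was 1.30 ± 0.03 at 30 rpm, 0.94 ± 0.03 at 1 rpm and -0.62 ± 0.03 in AggreWell in PANC-1 (± SE, n = 3 per group). In HEK293T it was 0.64 ± 0.03, 0.15 ± 0.03 and -0.60 ± 0.03, and the small rise at 1 rpm became -0.09 with median-ratio scaling.

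ATF5, the close relative of ATF4 whose message is also controlled by upstream reading frames, went the other way in DRCC against 2D. In AggreWell both genes fell. It had 19.3, 18.3 and 18.7 FPKM at 30 rpm, 12.6, 13 and 12.8 at 1 rpm, 41.2, 38.9 and 37.6 in AggreWell and 51.3, 45.7 and 45.7 in 2D in PANC-1. In HEK293T, where it was scarce, it had 1.52, 0.885 and 1.14 FPKM at 30 rpm, 1.68, 1.87 and 1.64 at 1 rpm, 2.94, 2.82 and 3.46 in AggreWell and 4.09, 3.59 and 3.85 in 2D. Every 3D format lay below 2D without overlap in both lines, with 1 rpm lowest in PANC-1 and 30 rpm lowest in HEK293T. Against 2D the log2 change was -1.29 ± 0.04 at 30 rpm, -1.81 ± 0.04 at 1 rpm and -0.27 ± 0.04 in AggreWell in PANC-1, and -1.16 ± 0.09, -0.83 ± 0.09 and -0.25 ± 0.09 in HEK293T. The HEK293T call in AggreWell was lost without 2D replicate 1 or 3 or AggreWell replicate 1 or 2, with values of -0.22, -0.25, -0.23 and -0.21, as well as with a pseudocount of 0.1 (-0.32), with no filter on low values (-0.25) and without mitochondrially encoded genes (-0.15). ATF5 overlaps IL4I1 and NUP62 on the other strand, and whether the counting used strand is not stated, so reads of these genes cannot be told apart.

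DDIT3 encodes CHOP, a factor tied to cell death under lasting endoplasmic reticulum stress. It had 136, 135 and 138 FPKM at 30 rpm, 82.9, 80.01 and 78.9 at 1 rpm, 11.2, 11.4 and 11.2 in AggreWell and 15.3, 14.2 and 12.8 in 2D in PANC-1. In HEK293T the values were 32.3, 36.6 and 37.9 FPKM at 30 rpm, 26.9, 27.6 and 26 at 1 rpm, 14.8, 14 and 14.7 in AggreWell and 6.79, 7.52 and 7.45 in 2D. The order 30 rpm, 1 rpm, then the static formats held in both lines without overlap, but AggreWell lay below 2D in PANC-1 and above it in HEK293T. The log2 change was 3.19 ± 0.05 at 30 rpm, 2.44 ± 0.05 at 1 rpm and -0.30 ± 0.05 in AggreWell in PANC-1, where it ranked 22 of 11585 genes at 30 rpm. In HEK293T it was 2.15 ± 0.05, 1.75 ± 0.05 and 0.91 ± 0.05. DDIT3 overlaps MARS1 and MBD6 on the other strand, so their reads cannot be told apart from its own. MARS1, a tRNA synthetase, averaged 169 ± 1.47 FPKM at 30 rpm, 135 ± 3.32 at 1 rpm, 90.2 ± 2.4 in AggreWell and 114 ± 0.745 in 2D in PANC-1, and 126 ± 2.14, 117 ± 3.01, 64.2 ± 1.15 and 94.6 ± 1.25 FPKM in the same formats in HEK293T.

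PPP1R15A encodes GADD34, the subunit that brings protein phosphatase 1 to eIF2 and so ends its phosphorylation. It had 105, 108 and 109.7 FPKM at 30 rpm, 80.2, 82 and 89.7 at 1 rpm, 8.97, 8.45 and 9.85 in AggreWell and 13.1, 12.2 and 10.6 in 2D in PANC-1. It had 90.5, 90.9 and 91.3 FPKM at 30 rpm, 66.4, 66.5 and 68.6 at 1 rpm, 24.1, 22.9 and 25.1 in AggreWell and 15.7, 13.8 and 15.2 in 2D in HEK293T. Its order across formats was that of DDIT3 in each line. Against 2D the log2 change was 3.07 ± 0.07 at 30 rpm, 2.71 ± 0.07 at 1 rpm and -0.36 ± 0.07 in AggreWell in PANC-1, and 2.53 ± 0.04, 2.10 ± 0.04 and 0.66 ± 0.04 in HEK293T.

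CHAC1, a glutathione-degrading enzyme induced by ATF4, separated the lines. It had 1.07, 1.26 and 1.36 FPKM at 30 rpm, 0.914, 0.743 and 0.969 at 1 rpm, 0.796, 0.69 and 0.815 in AggreWell and 1.59, 1.67 and 1.37 in 2D in PANC-1. In HEK293T it had 7.1, 7.67 and 7.33 FPKM at 30 rpm, 9.69, 8.85 and 9.08 at 1 rpm, 2.22, 2.02 and 2.25 in AggreWell and 0.905, 0.943 and 0.93 in 2D. Every 3D format lay below 2D in PANC-1 and above 2D in HEK293T, without overlap. The log2 change was -0.19 ± 0.07 at 30 rpm, -0.44 ± 0.07 at 1 rpm and -0.53 ± 0.07 in AggreWell in PANC-1, and 2.12 ± 0.05, 2.40 ± 0.05 and 0.71 ± 0.05 in HEK293T. The small PANC-1 fall at 30 rpm was no longer called without 2D replicate 1 (-0.18), 2D replicate 2 (-0.15) or 30 rpm replicate 1 (-0.14). NUPR1, a small stress-induced chromatin cofactor, had 3.08, 3.02 and 2.95 FPKM at 30 rpm, 3.74, 4.18 and 4.25 at 1 rpm, 0.626, 0.631 and 0.754 in AggreWell and 0.464, 0.476 and 0.501 in 2D in PANC-1, with each 3D format above 2D. Its PANC-1 log2 change was 1.44 ± 0.05 at 30 rpm and 1.77 ± 0.05 at 1 rpm. In HEK293T it stayed below the filter, at 0.00479 to 0.606 FPKM.

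The C/EBP partners rose in DRCC. CEBPB averaged 67.6 ± 1.6 FPKM at 30 rpm, 48.2 ± 1.97 at 1 rpm, 14.4 ± 0.19 in AggreWell and 23.2 ± 0.726 in 2D in PANC-1 and 38 ± 0.548 FPKM at 30 rpm, 50.04 ± 1.93 at 1 rpm, 20.6 ± 1.3 in AggreWell and 20.5 ± 0.638 in 2D in HEK293T (SD, n = 3 each). CEBPG averaged 28.5 ± 0.314 FPKM at 30 rpm, 27.6 ± 1.02 at 1 rpm, 17.1 ± 0.496 in AggreWell and 20.8 ± 0.539 in 2D in PANC-1 and 36.9 ± 1.04 FPKM at 30 rpm, 35.8 ± 1.19 at 1 rpm, 19.9 ± 0.528 in AggreWell and 12.7 ± 0.837 in 2D in HEK293T. Both were called higher at both speeds in both lines, and CEBPB overlaps the antisense gene CEBPB-AS1. TRIB3, a pseudokinase that restrains ATF4, rose less than CEBPB at both speeds in both lines. In PANC-1 its log2 change was 0.85 ± 0.04 at 30 rpm and 0.47 ± 0.04 at 1 rpm. In HEK293T the values were 0.21 ± 0.04 and 0.68 ± 0.04. Its HEK293T call at 30 rpm was lost with median-ratio scaling (0.04) and quantile normalization (0.03). SESN2, a leucine sensor that restrains mTORC1, was not called at either speed in PANC-1. There it averaged 4.81 ± 0.329 FPKM at 30 rpm, 4.22 ± 0.243 at 1 rpm, 3.91 ± 0.234 in AggreWell and 4.72 ± 0.324 in 2D. In HEK293T SESN2 averaged 32.25 ± 0.729 FPKM at 30 rpm, 37.6 ± 1.9 at 1 rpm, 35.6 ± 1.21 in AggreWell and 30.07 ± 0.503 in 2D. Each 3D format lay above 2D there. EIF4EBP1, the translation repressor 4E-BP1, averaged 89.1 ± 1.8 FPKM at 30 rpm, 48.5 ± 0.899 at 1 rpm, 40.4 ± 0.374 in AggreWell and 58.8 ± 5.75 in 2D in PANC-1 and was called higher at 30 rpm and lower at 1 rpm. In HEK293T it had the highest level of all 40 genes in every format, averaging 308 ± 16.1 FPKM at 30 rpm, 391 ± 2.2 at 1 rpm, 184 ± 5.91 in AggreWell and 226 ± 6.1 in 2D. JDP2, a repressor of the same leucine zipper family, passed the filter in HEK293T with 1.03 ± 0.0301 FPKM at 30 rpm, 1.76 ± 0.0214 at 1 rpm, 0.855 ± 0.111 in AggreWell and 0.691 ± 0.088 in 2D, and the antisense gene JDP2-AS1 overlaps it.

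**Figure D2:**
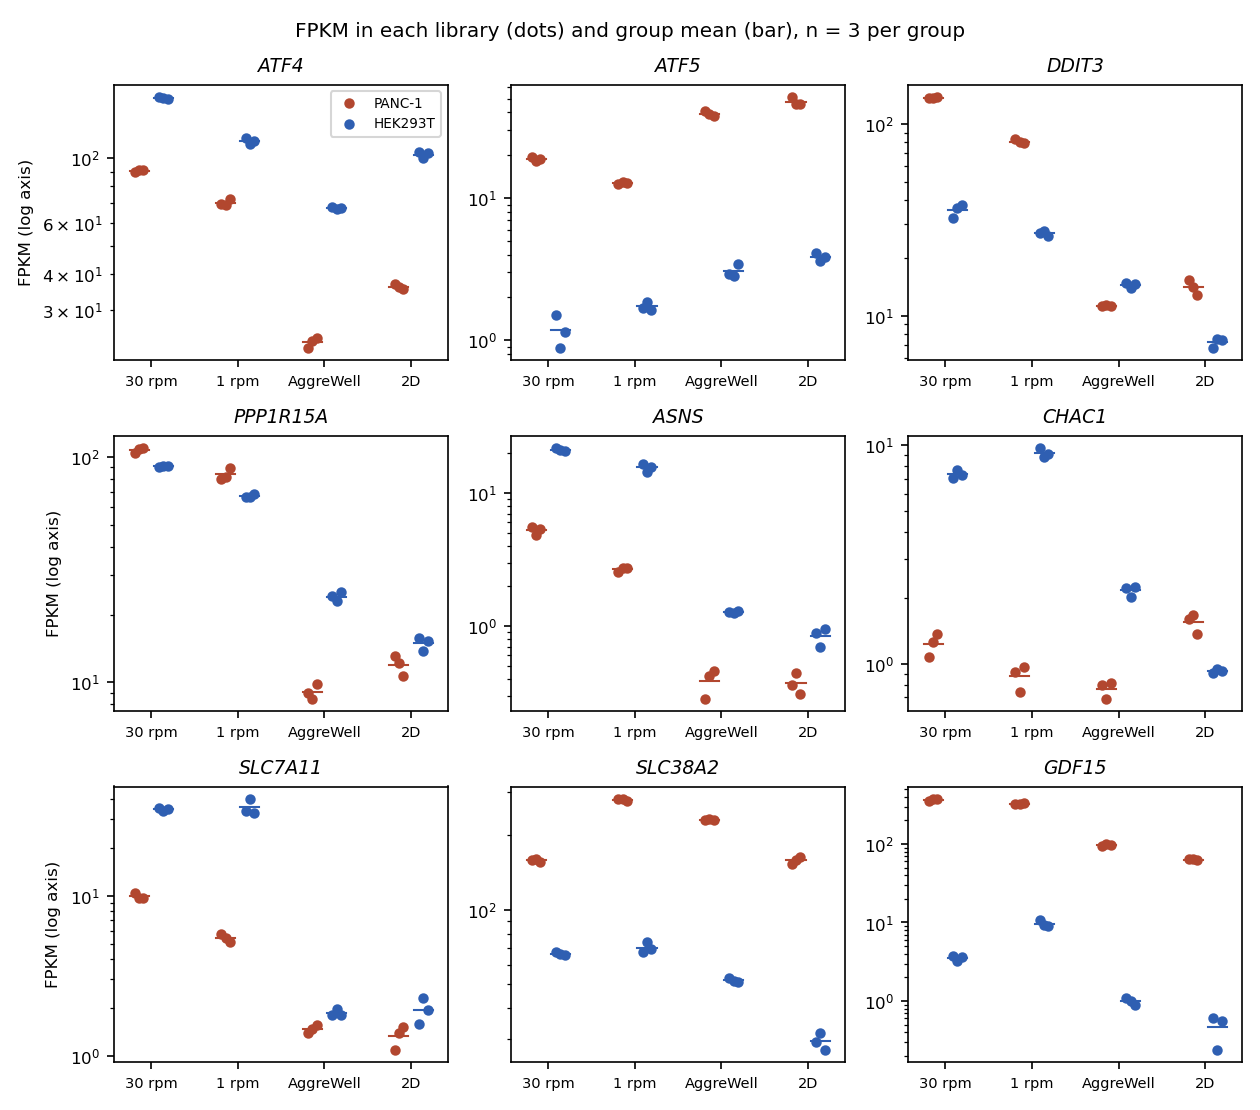
FPKM on a log axis in each library (dots) with the group mean (bar) for ATF4, ATF5, DDIT3, PPP1R15A, ASNS, CHAC1, SLC7A11, SLC38A2 and GDF15 in DRCC at 30 rpm, DRCC at 1 rpm, AggreWell and 2D, for PANC-1 and HEK293T. The 3 libraries of a group lie close together, ATF5 has its highest dots in 2D in both lines, and CHAC1 is raised outside 2D in HEK293T alone.

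Among the 12 amino acid synthesis enzymes, asparagine synthetase changed most in both lines. At 30 rpm 9 rose and 1 fell in PANC-1 (53.6% and 32.2% of all genes), and 10 rose and 2 fell in HEK293T (49.6% and 35.5%). At 1 rpm the numbers were 7 and 3 in PANC-1 (52.3% and 33.9%) and 10 and 2 in HEK293T (53.1% and 31.7%). In AggreWell they were 1 and 6 in PANC-1 (45.9% and 24.1%) and 4 and 7 in HEK293T (48.6% and 26.8%). ASNS, which makes asparagine from aspartate and glutamine, had 5.56, 4.87 and 5.35 FPKM at 30 rpm, 2.54, 2.75 and 2.73 at 1 rpm, 0.283, 0.419 and 0.455 in AggreWell and 0.36, 0.445 and 0.309 in 2D in PANC-1. In HEK293T it had 21.8, 20.9 and 20.7 FPKM at 30 rpm, 16.4, 14.5 and 15.8 at 1 rpm, 1.28, 1.26 and 1.29 in AggreWell and 0.891, 0.689 and 0.941 in 2D. It was higher at 30 rpm than at 1 rpm and higher at 1 rpm than in the static formats without overlap in both lines, while AggreWell and 2D overlapped in PANC-1. The mean FPKM at 30 rpm was 14.2 times that of 2D in PANC-1 and 25.1 times in HEK293T. On the log2(FPKM + 1) scale, which understates changes of genes this low in 2D, the change was 2.19 ± 0.06 at 30 rpm and 1.42 ± 0.06 at 1 rpm in PANC-1 (limma adjusted p 9.55e-13 and 7.19e-11) and 3.59 ± 0.06 and 3.17 ± 0.06 in HEK293T (adjusted p 1.39e-14 and 5.29e-14). In PANC-1 ASNS passed the filter only through the DRCC libraries, and in HEK293T only through those of the 3D formats. The adjusted p-values therefore add no support beyond the values themselves. ASNS has named pseudogenes, and the way the authors' counting treated shared reads is not stated.

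ALDH1L2 and CTH, from the mitochondrial folate and the transsulfuration pathways, rose at both speeds in both lines. ALDH1L2, which oxidises 10-formyltetrahydrofolate, had 1.09, 1.09 and 1.16 FPKM at 30 rpm, 1.18, 0.995 and 1.01 at 1 rpm, 0.319, 0.299 and 0.252 in AggreWell and 0.16, 0.113 and 0.176 in 2D in PANC-1. HEK293T libraries had 13.3, 13.4 and 13.3 FPKM at 30 rpm, 15.1, 15.7 and 15.9 at 1 rpm, 6.005, 5.78 and 5.85 in AggreWell and 3.32, 3.7 and 3.65 in 2D. CTH, which releases cysteine from cystathionine, had 2.62, 2.75 and 2.71 FPKM at 30 rpm, 2.64, 2.68 and 2.57 at 1 rpm, 0.652, 0.6001 and 0.66 in AggreWell and 0.487, 0.533 and 0.628 in 2D in PANC-1. It had 28.7, 29.7 and 28.5 FPKM at 30 rpm, 30.7, 30.8 and 30.1 at 1 rpm, 8.23, 8.66 and 8.67 in AggreWell and 8.27, 7.52 and 7.68 in 2D in HEK293T. The 30 rpm and 1 rpm libraries of PANC-1 overlapped for both genes, and all lay above 2D. For ALDH1L2 the log2 change at 30 rpm was 0.88 ± 0.06 in PANC-1 and 1.66 ± 0.04 in HEK293T, and for CTH 1.25 ± 0.05 and 1.76 ± 0.04. NOPCHAP1 overlaps ALDH1L2 on the other strand.

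CBS, which forms the cystathionine that CTH cleaves, had 12.6, 12.1 and 4.96 FPKM at 30 rpm, 2.74, 3.36 and 3.42 at 1 rpm, 2.75, 2.74 and 3.44 in AggreWell and 2.03, 1.58 and 2.41 in 2D in PANC-1, with 30 rpm above all other formats although its replicate 3 lay well below the other two. In HEK293T the values were 15.8, 17.3 and 20.6 FPKM at 30 rpm, 17.8, 15.5 and 16.5 at 1 rpm, 14.4, 14.1 and 14.9 in AggreWell and 12.6, 13 and 13.3 in 2D. Its log2 change in PANC-1 was 1.77 ± 0.23 at 30 rpm, and at 1 rpm it was 0.48 ± 0.23 and not called. At 1 rpm it was called with a pseudocount of 0.1 (0.65), without mitochondrially encoded genes (0.53) and with only the compared groups fitted (0.48). A near-identical gene copy makes the counts of CBS uncertain. PHGDH, the entry enzyme of serine synthesis, had 29.2, 29.9 and 29.1 FPKM at 30 rpm, 17.9, 17.7 and 17.9 at 1 rpm, 7.79, 8.03 and 7.996 in AggreWell and 8.27, 9.96 and 9.49 in 2D in PANC-1. It had 85.5, 85.3 and 86.1 FPKM at 30 rpm, 93.2, 89.6 and 92.1 at 1 rpm, 48.2, 47.7 and 49.7 in AggreWell and 66.9, 63.9 and 67.4 in 2D in HEK293T. AggreWell was lowest and both speeds were above 2D in each line, with 30 rpm above 1 rpm in PANC-1 and below it in HEK293T. Against 2D the log2 change was 1.57 ± 0.05 at 30 rpm, 0.88 ± 0.05 at 1 rpm and -0.19 ± 0.05 in AggreWell in PANC-1, and 0.37 ± 0.03, 0.47 ± 0.03 and -0.44 ± 0.03 in HEK293T. Its PANC-1 call in AggreWell was lost without mitochondrially encoded genes (-0.10).

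The later steps of serine synthesis did not move as one. PSAT1, the transaminase of the pathway, averaged 177 ± 3.73 FPKM at 30 rpm, 75.8 ± 1.29 at 1 rpm, 45.1 ± 0.767 in AggreWell and 65.9 ± 2.48 in 2D in PANC-1 and 215 ± 2.75 FPKM at 30 rpm, 282 ± 3.94 at 1 rpm, 111 ± 2.2 in AggreWell and 154 ± 2.02 in 2D in HEK293T. PSPH, the phosphatase that releases serine, averaged 15.3 ± 0.952 FPKM at 30 rpm, 8.67 ± 0.545 at 1 rpm, 15.9 ± 0.675 in AggreWell and 16.6 ± 0.456 in 2D in PANC-1, where it fell at 1 rpm (log2 change -0.87 ± 0.05) and was not called at 30 rpm, and 17.9 ± 0.307 FPKM at 30 rpm, 23.3 ± 0.313 at 1 rpm, 13.8 ± 0.11 in AggreWell and 20 ± 0.152 in 2D in HEK293T. In mitochondrial one-carbon metabolism, MTHFD2, a methylenetetrahydrofolate dehydrogenase, averaged 148 ± 1.45 FPKM at 30 rpm, 115 ± 1.85 at 1 rpm, 61.2 ± 0.553 in AggreWell and 83.3 ± 2.62 in 2D in PANC-1 and 94.8 ± 0.0624 FPKM at 30 rpm, 104 ± 2.31 at 1 rpm, 46.9 ± 2.28 in AggreWell and 57.8 ± 1.73 in 2D in HEK293T, and was called higher at both speeds in both lines. SHMT2, which splits serine into glycine and a one-carbon unit, averaged 60.1 ± 1.8 FPKM at 30 rpm, 44.3 ± 2.23 at 1 rpm, 41.1 ± 0.792 in AggreWell and 59.4 ± 4.07 in 2D in PANC-1, where it fell at 1 rpm and in AggreWell, and 141 ± 3.5 FPKM at 30 rpm, 103 ± 2.21 at 1 rpm, 115 ± 1.86 in AggreWell and 125 ± 2.27 in 2D in HEK293T. Of the proline pathway, ALDH18A1, its entry enzyme, fell in all 3 formats in both lines, with 19.6 ± 0.727 FPKM at 30 rpm, 23.5 ± 0.499 at 1 rpm, 20.1 ± 0.266 in AggreWell and 26.8 ± 0.705 in 2D in PANC-1 and 49.7 ± 0.474 FPKM at 30 rpm, 51.5 ± 0.793 at 1 rpm, 76.4 ± 1.35 in AggreWell and 93 ± 3.05 in 2D in HEK293T. PYCR1, its last enzyme, averaged 81.2 ± 1.06 FPKM at 30 rpm, 58.1 ± 2.5 at 1 rpm, 42.1 ± 0.788 in AggreWell and 59.4 ± 1.51 in 2D in PANC-1 and 129.7 ± 1.95 FPKM at 30 rpm, 123 ± 1.76 at 1 rpm, 79.97 ± 1.07 in AggreWell and 105 ± 3.64 in 2D in HEK293T. GPT2, the mitochondrial alanine aminotransferase, averaged 6.76 ± 0.05999 FPKM at 30 rpm, 4.44 ± 0.159 at 1 rpm, 3.15 ± 0.101 in AggreWell and 3.4 ± 0.602 in 2D in PANC-1 and 22 ± 0.736 FPKM at 30 rpm, 24.7 ± 0.389 at 1 rpm, 24.2 ± 0.657 in AggreWell and 18.3 ± 0.647 in 2D in HEK293T. PSAT1, PSPH and MTHFD2 have named pseudogenes, and SHMT2, MTHFD2 and PYCR1 overlap neighbouring genes.

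Among the tested transporters, SLC7A11 changed most in both lines. Of 8 transporters tested in PANC-1, 5 rose and 0 fell at 30 rpm (53.6% and 32.2% of all genes), 3 rose and 4 fell at 1 rpm (52.3% and 33.9%), and 2 rose and 4 fell in AggreWell (45.9% and 24.1%). Of 9 tested in HEK293T the numbers were 8 and 1 (49.6% and 35.5%), 8 and 0 (53.1% and 31.7%), and 3 and 3 (48.6% and 26.8%). SLC7A11, the light chain of the cystine and glutamate exchanger, had 10.3, 9.72 and 9.62 FPKM at 30 rpm, 5.8, 5.47 and 5.11 at 1 rpm, 1.39, 1.47 and 1.56 in AggreWell and 1.09, 1.38 and 1.52 in 2D in PANC-1. In HEK293T it had 35.4, 33.8 and 35 FPKM at 30 rpm, 33.6, 40.2 and 33 at 1 rpm, 1.8, 1.97 and 1.8 in AggreWell and 1.57, 2.31 and 1.93 in 2D. Both speeds lay above the static formats, which overlapped each other in both lines, and the speeds themselves overlapped in HEK293T. The log2 change was 2.23 ± 0.07 at 30 rpm and 1.47 ± 0.07 at 1 rpm in PANC-1, and 3.61 ± 0.09 and 3.64 ± 0.09 in HEK293T, where the gene ranked 6 of 12548 at 30 rpm. The antisense gene SLC7A11-AS1 overlaps it.

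SLC3A2, the heavy chain shared by SLC7A11 and SLC7A5, had 172, 174 and 176 FPKM at 30 rpm, 83.7, 86.3 and 84 at 1 rpm, 71.6, 76 and 74.3 in AggreWell and 82.4, 85.3 and 85.7 in 2D in PANC-1. HEK293T libraries had 155, 151 and 159 FPKM at 30 rpm, 158, 152 and 164 at 1 rpm, 103, 103 and 103 in AggreWell and 98.4, 97.3 and 101 in 2D. In PANC-1 it rose at 30 rpm alone, by 1.03 ± 0.03 on the log2 scale, while 1 rpm overlapped 2D. In HEK293T both speeds lay above 2D and overlapped each other, with a log2 change of 0.64 ± 0.03 at 30 rpm and 0.67 ± 0.03 at 1 rpm. SLC38A2, the sodium-coupled carrier of small neutral amino acids, had 159, 161 and 156 FPKM at 30 rpm, 280.4, 281 and 275 at 1 rpm, 231, 233 and 231 in AggreWell and 153, 159 and 164 in 2D in PANC-1. It had 67.4, 66.7 and 65.6 FPKM at 30 rpm, 67.4, 74 and 69.3 at 1 rpm, 53.1, 51.5 and 51.3 in AggreWell and 29.3, 31.8 and 27.2 in 2D in HEK293T. In PANC-1 the 30 rpm libraries overlapped those of 2D, and 1 rpm and AggreWell were higher (log2 change 0.81 ± 0.03 and 0.54 ± 0.03). In HEK293T all 3D formats lay above 2D, with log2 changes of 1.15 ± 0.05 at 30 rpm, 1.23 ± 0.05 at 1 rpm and 0.80 ± 0.05 in AggreWell.

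SLC1A4, a carrier of alanine, serine and cysteine, had 12.8, 12.2 and 12.5 FPKM at 30 rpm, 5.43, 5.44 and 5.36 at 1 rpm, 6.14, 5.93 and 5.7 in AggreWell and 5.59, 6.22 and 5.75 in 2D in PANC-1. In HEK293T the values were 3.46, 3.1 and 3.62 FPKM at 30 rpm, 5.85, 5.52 and 5.52 at 1 rpm, 2.14, 2.02 and 2.27 in AggreWell and 1.28, 1.42 and 1.7 in 2D. It was raised at 30 rpm in PANC-1 (log2 change 0.98 ± 0.04), where 1 rpm lay just below 2D (-0.10 ± 0.04), and in HEK293T it was higher at 1 rpm (1.43 ± 0.07) than at 30 rpm (0.84 ± 0.07). The PANC-1 call at 1 rpm was lost without 2D replicate 2 (-0.06) or any 1 rpm library (-0.10, -0.10 and -0.09), and under 5 other alternatives (-0.11 to -0.03). SLC6A9, a glycine transporter, had 5.31, 5.27 and 5.35 FPKM at 30 rpm, 2.76, 3.17 and 3.2 at 1 rpm, 2.56, 2.8 and 2.66 in AggreWell and 1.85, 1.67 and 1.74 in 2D in PANC-1. It had 4.69, 4.81 and 4.59 FPKM at 30 rpm, 6.03, 5.95 and 6.33 at 1 rpm, 3.12, 3.21 and 3.56 in AggreWell and 3.9, 3.64 and 3.72 in 2D in HEK293T. Every 3D format lay above 2D in PANC-1, while AggreWell lay below 2D in HEK293T. Its log2 change was 1.20 ± 0.05 at 30 rpm and 0.55 ± 0.05 at 1 rpm in PANC-1, and 0.58 ± 0.05 at 1 rpm in HEK293T. CCDC24 overlaps it on the other strand.

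SLC7A5, the large neutral amino acid carrier, averaged 69 ± 0.747 FPKM at 30 rpm, 43.9 ± 0.93 at 1 rpm, 57.1 ± 0.253 in AggreWell and 71.3 ± 4.04 in 2D in PANC-1 and 82.7 ± 0.188 FPKM at 30 rpm, 93 ± 2.48 at 1 rpm, 65.8 ± 2.18 in AggreWell and 77.8 ± 1.68 in 2D in HEK293T. SLC7A1, a cationic amino acid carrier, averaged 19.2 ± 0.701 FPKM at 30 rpm, 12.7 ± 0.229 at 1 rpm, 13.9 ± 0.311 in AggreWell and 19.4 ± 0.0819 in 2D in PANC-1 and 35.9 ± 1.08 FPKM at 30 rpm, 46.5 ± 1.28 at 1 rpm, 29.7 ± 0.303 in AggreWell and 30.8 ± 0.582 in 2D in HEK293T. SLC1A5, a glutamine carrier, averaged 85.1 ± 0.831 FPKM at 30 rpm, 50.4 ± 1.16 at 1 rpm, 48.4 ± 0.392 in AggreWell and 70.03 ± 1.18 in 2D in PANC-1 and 181 ± 1.12 FPKM at 30 rpm, 202 ± 6.61 at 1 rpm, 139.7 ± 2.85 in AggreWell and 197 ± 4.7 in 2D in HEK293T. In PANC-1 all of these fell at 1 rpm and in AggreWell, and at 30 rpm SLC1A5 was called higher while SLC7A5 and SLC7A1 were not called. The SLC1A5 call was lost with median-ratio scaling (0.02), and in HEK293T its change at 30 rpm (-0.12 ± 0.03) turned with quantile normalization and without mitochondrially encoded genes. SLC43A1, another large neutral amino acid carrier, had 0.831 ± 0.124 FPKM at 30 rpm, 1.12 ± 0.166 at 1 rpm, 0.313 ± 0.0393 in AggreWell and 0.215 ± 0.0678 in 2D in PANC-1, where it did not pass the filter, and 14.7 ± 0.225 FPKM at 30 rpm, 14.4 ± 0.498 at 1 rpm, 11 ± 0.501 in AggreWell and 8.63 ± 0.428 in 2D in HEK293T. SLC7A3 had at most 2 fragments in any of the 24 libraries and gives no value.

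In HEK293T all 5 of the tested secreted, receptor and exporter genes were called higher in every 3D format, though GDF15 in AggreWell lost its call with quantile normalization (0.11). INHBE, GDF15 and VLDLR were below 1 FPKM in every 2D library and passed the filter only through 3D formats. Their place in this count was therefore partly set by the filter, which left out FGF21. Of all genes, 49.6% rose at 30 rpm, 53.1% at 1 rpm and 48.6% in AggreWell. In PANC-1 all 3 tested rose at 30 rpm (53.6% of all genes), of which STC2 (0.07 ± 0.02) and XPOT (0.21 ± 0.03) turned to -0.19 and -0.04 with median-ratio scaling. The STC2 call was also lost without 30 rpm replicate 3 (0.05), without mitochondrially encoded genes (0.04) and with only the compared groups fitted. INHBE, a subunit of activin E, had 9.24, 10.02 and 10.9 FPKM at 30 rpm, 25.5, 24.7 and 23.9 at 1 rpm, 2.87, 2.43 and 2.79 in AggreWell and 0.46, 0.416 and 0.515 in 2D in HEK293T. The 4 formats did not overlap, with 1 rpm highest. Against 2D the log2 change was 2.91 ± 0.06 at 30 rpm, 4.13 ± 0.06 at 1 rpm and 1.33 ± 0.06 in AggreWell, and the mean FPKM was 21.6, 53.3 and 5.81 times that of 2D. Its rank at 1 rpm was 3 of 12548 genes by log2 change. In PANC-1 INHBE had 0 to 0.222 FPKM and was not tested.

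GDF15, a circulating stress hormone, was the highest of all 40 genes in PANC-1 at both speeds, with 358, 372 and 374 FPKM at 30 rpm, 321, 321 and 332 at 1 rpm, 95.6, 99.2 and 98.5 in AggreWell and 63.9, 63.6 and 62 in 2D. In HEK293T it had 3.78, 3.2 and 3.66 FPKM at 30 rpm, 10.8, 9.17 and 9.06 at 1 rpm, 1.08, 1.01 and 0.886 in AggreWell and 0.599, 0.238 and 0.561 in 2D. Each 3D format lay above 2D in both lines, and the speeds differed in order, with 30 rpm above 1 rpm in PANC-1 and below it in HEK293T. The log2 change was 2.52 ± 0.03 at 30 rpm, 2.35 ± 0.03 at 1 rpm and 0.62 ± 0.03 in AggreWell in PANC-1, and 1.64 ± 0.10, 2.87 ± 0.10 and 0.45 ± 0.10 in HEK293T.

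STC2, a secreted glycoprotein, had 198, 195 and 203 FPKM at 30 rpm, 175, 174 and 173 at 1 rpm, 223, 228 and 225 in AggreWell and 192, 187 and 189 in 2D in PANC-1. HEK293T libraries had 59.6, 55 and 56.2 FPKM at 30 rpm, 73.5, 73.6 and 76.5 at 1 rpm, 77, 74.5 and 75.5 in AggreWell and 28.4, 26.3 and 26.5 in 2D. In HEK293T AggreWell and 1 rpm overlapped, both above 30 rpm and 2D, with a log2 change of 1.05 ± 0.04 at 30 rpm, 1.43 ± 0.04 at 1 rpm and 1.45 ± 0.04 in AggreWell. VLDLR, a lipoprotein receptor, had 1.88, 1.68 and 1.82 FPKM at 30 rpm, 2.6, 2.31 and 2.11 at 1 rpm, 1.35, 1.36 and 1.35 in AggreWell and 0.631, 0.567 and 0.614 in 2D in HEK293T. The log2 change in HEK293T was 0.80 ± 0.06 at 30 rpm and 1.05 ± 0.06 at 1 rpm, and in PANC-1 it stayed below the filter at 0.237 to 0.981 FPKM. The antisense gene VLDLR-AS1 overlaps it. XPOT, the exportin that carries tRNA out of the nucleus, had 46.5, 46.4 and 44.5 FPKM at 30 rpm, 42.1, 42.8 and 41.4 at 1 rpm, 34.8, 35.3 and 35.6 in AggreWell and 38.6, 39.8 and 40.03 in 2D in PANC-1. It had 57.9, 58.7 and 57.1 FPKM at 30 rpm, 63.4, 64.2 and 62.9 at 1 rpm, 45.5, 47.1 and 45.7 in AggreWell and 33.3, 35.8 and 32.6 in 2D in HEK293T. All 3D formats lay above 2D in HEK293T (log2 change 0.76 ± 0.03 at 30 rpm and 0.89 ± 0.03 at 1 rpm), and AggreWell lay below 2D in PANC-1 (-0.16 ± 0.03), a call lost without mitochondrially encoded genes (-0.06). FGF21, a hormone of the fasting and stress response, reached 0.627 FPKM in HEK293T, with 0.248, 0.516 and 0.365 FPKM at 30 rpm, 0.478, 0.627 and 0.555 at 1 rpm, 0.0585, 0 and 0.0198 in AggreWell and 0.0191, 0 and 0 in 2D, and had 5 fragments in all 12 PANC-1 libraries together.

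Most of the tested members were also higher in DRCC than in AggreWell, the static 3D format. No group was grown in a DRCC container without rotation, so effects of container and rotation cannot be told apart. At 30 rpm 29 of 34 rose and 3 fell in PANC-1 (45.4% and 37.8% of all genes), with 16 at least 2-fold higher (6.65%). At 1 rpm 25 rose and 6 fell (43.7% and 38.4%), with 10 at least 2-fold higher (5.17%). In HEK293T at 30 rpm 30 of 37 rose and 5 fell (39.9% and 38.7%), with 11 at least 2-fold higher (2.24%), and at 1 rpm 31 rose and 3 fell (41.8% and 33.8%), with 13 at least 2-fold higher (2%). The largest rises at 30 rpm over AggreWell were those of DDIT3 (3.49 ± 0.05), PPP1R15A (3.43 ± 0.07) and ASNS (2.17 ± 0.06) in PANC-1, and of SLC7A11 (3.65 ± 0.09), ASNS (3.28 ± 0.06) and PPP1R15A (1.88 ± 0.04) in HEK293T. ATF4 rose by 1.92 ± 0.03 in PANC-1 and 1.25 ± 0.03 in HEK293T, more than over 2D, while ATF5 changed by -1.02 ± 0.04 and -0.91 ± 0.09. STC2 in HEK293T fell at 30 rpm (-0.40 ± 0.04) and was not called at 1 rpm (-0.02 ± 0.04).

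The speeds ordered these genes in opposite ways in the lines. At 30 rpm against 1 rpm, 28 of 34 members rose and 3 fell in PANC-1 (36.2% and 31.9% of all genes), and 6 of 37 rose and 23 fell in HEK293T (19.6% and 32.9%). The median log2 change was 0.48 in PANC-1, beside 0.02 for all genes, and -0.16 in HEK293T, beside -0.04. The 6 members higher at 30 rpm in both lines were ATF4, DDIT3, PPP1R15A, ASNS, SHMT2 and PYCR1. The largest rises in PANC-1 were those of CBS (1.29 ± 0.23), PSAT1 (1.22 ± 0.03), SLC1A4 (1.08 ± 0.04) and SLC3A2 (1.03 ± 0.03), which were the 4 members raised at least 2-fold (0.76% of all genes). A further 19 rose in PANC-1 and fell in HEK293T. For this contrast the shares of all genes higher in both lines, or opposite between them, were not counted. In PANC-1 SLC38A2 went the other way, by -0.81 ± 0.03, followed by NUPR1 (-0.33 ± 0.05) and ALDH18A1 (-0.25 ± 0.03). In HEK293T the largest falls were those of GDF15 (-1.23 ± 0.10) and INHBE (-1.22 ± 0.06), the 2 members lowered at least 2-fold (0.104% of all genes), and the rises were led by ATF4 (0.49 ± 0.03), SHMT2 (0.44 ± 0.03) and PPP1R15A (0.43 ± 0.04).

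The difference between the lines in this contrast was tested directly, a comparison added after the values were seen. Of 38 members tested over all 24 libraries, 29 changed more upward in PANC-1 than in HEK293T and 4 more downward (37.9% and 25.3% of 13392 genes), with 8 differing by at least 2-fold upward (1.95%) and a median of 0.58 against 0.07 for all genes. SLC1A4 (1.67 ± 0.08), PSAT1 (1.61 ± 0.04), GDF15 (1.41 ± 0.10) and INHBE (1.39 ± 0.08) differed most, and ATF4 differed by -0.13 ± 0.04.

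**Figure D3:**
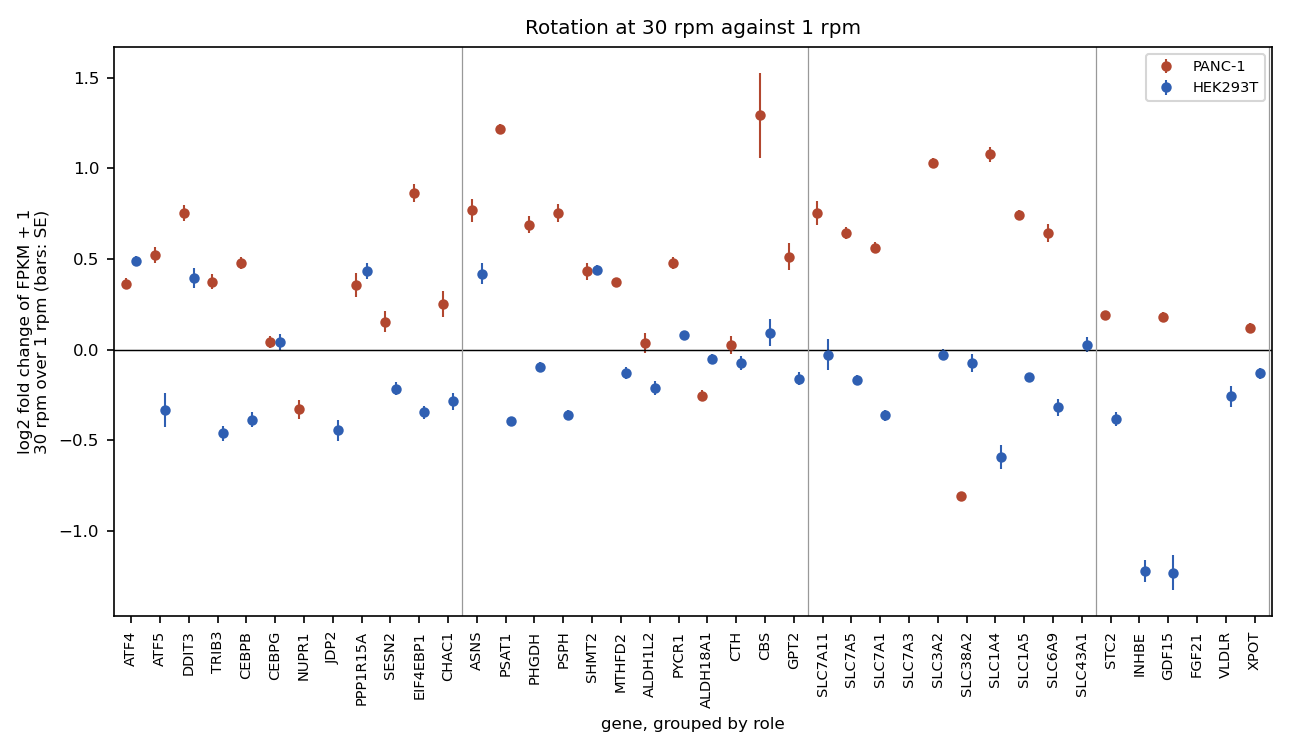
Log2 fold change of FPKM + 1 for 30 rpm over 1 rpm (points, with SE bars) of each tested member, grouped by role, in PANC-1 and HEK293T. PANC-1 points lie mostly above 0 and HEK293T points mostly below, and ATF4, DDIT3, PPP1R15A, ASNS, SHMT2 and PYCR1 were called above 0 in both.

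At 1 rpm and in AggreWell most members changed more downward in PANC-1 than in HEK293T, while at 30 rpm the split was near that of all genes. Tested as the change against 2D in PANC-1 minus that in HEK293T, 18 of 38 members were more upward in PANC-1 and 15 more downward at 30 rpm (42% and 37.5% of all genes), 6 and 28 at 1 rpm (35.8% and 40%), and 3 and 25 in AggreWell (25% and 32%). The split at 30 rpm became 15 and 20 with quantile normalization, and 15 and 19 with mitochondrially encoded genes left out. At 1 rpm 11 differed by at least 2-fold downward (6.48%). The largest differences at 30 rpm were those of INHBE (-2.69 ± 0.08), CHAC1 (-2.31 ± 0.08), ASNS (-1.40 ± 0.08) and SLC7A11 (-1.38 ± 0.11), all more upward in HEK293T. At 1 rpm they were those of INHBE (-4.08 ± 0.08), CHAC1 (-2.85 ± 0.08), SLC7A11 (-2.17 ± 0.11) and ASNS (-1.75 ± 0.08). In AggreWell INHBE (-1.34 ± 0.08), CHAC1 (-1.24 ± 0.08), DDIT3 (-1.21 ± 0.08) and STC2 (-1.20 ± 0.04) led. ATF4 itself rose more in PANC-1, by 0.66 ± 0.04 at 30 rpm and 0.79 ± 0.04 at 1 rpm. The ASNS difference at 30 rpm was -0.99 with a pseudocount of 0.1 in place of 1. INHBE passed the filter through HEK293T alone, and with voom on recovered fragments its difference was -1.13 and not called at 30 rpm, -4.38 at 1 rpm and -2.74 in AggreWell.

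In 2D the share of these genes higher in PANC-1 was near that of all genes. Their median log2 difference, PANC-1 minus HEK293T, was -0.35, beside -0.27 for all genes. With quantile normalization it was -0.10, beside -0.05. Of 38 tested, 12 were higher in PANC-1 and 26 lower (34.7% and 56.1% of 13392 genes), and of the 12 synthesis enzymes 1 was higher in PANC-1 and 11 were lower. With median-ratio scaling 15 of all members were higher and 20 lower. The enzyme higher in PANC-1 was MTHFD2, with 80.3, 84.6 and 85.1 FPKM in PANC-1 and 57, 59.8 and 56.6 in HEK293T. PHGDH had 8.27, 9.96 and 9.49 FPKM in PANC-1 and 66.9, 63.9 and 67.4 in HEK293T, a log2 difference of -2.71 ± 0.04. ATF4 had a log2 difference of -1.49 ± 0.03. GDF15 showed the largest excess in PANC-1 (5.46 ± 0.07), followed by ATF5 (3.32 ± 0.08), STC2 (2.76 ± 0.03) and SLC38A2 (2.40 ± 0.04). The most abundant members in 2D were STC2, SLC38A2, SLC3A2, MTHFD2 and SLC7A5 in PANC-1, and EIF4EBP1, SLC1A5, PSAT1, SHMT2 and PYCR1 in HEK293T. Means were below 1 FPKM for 10 members in PANC-1 and 9 in HEK293T in 2D, and for 6 and 3 members at 30 rpm.

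**Figure D4:**
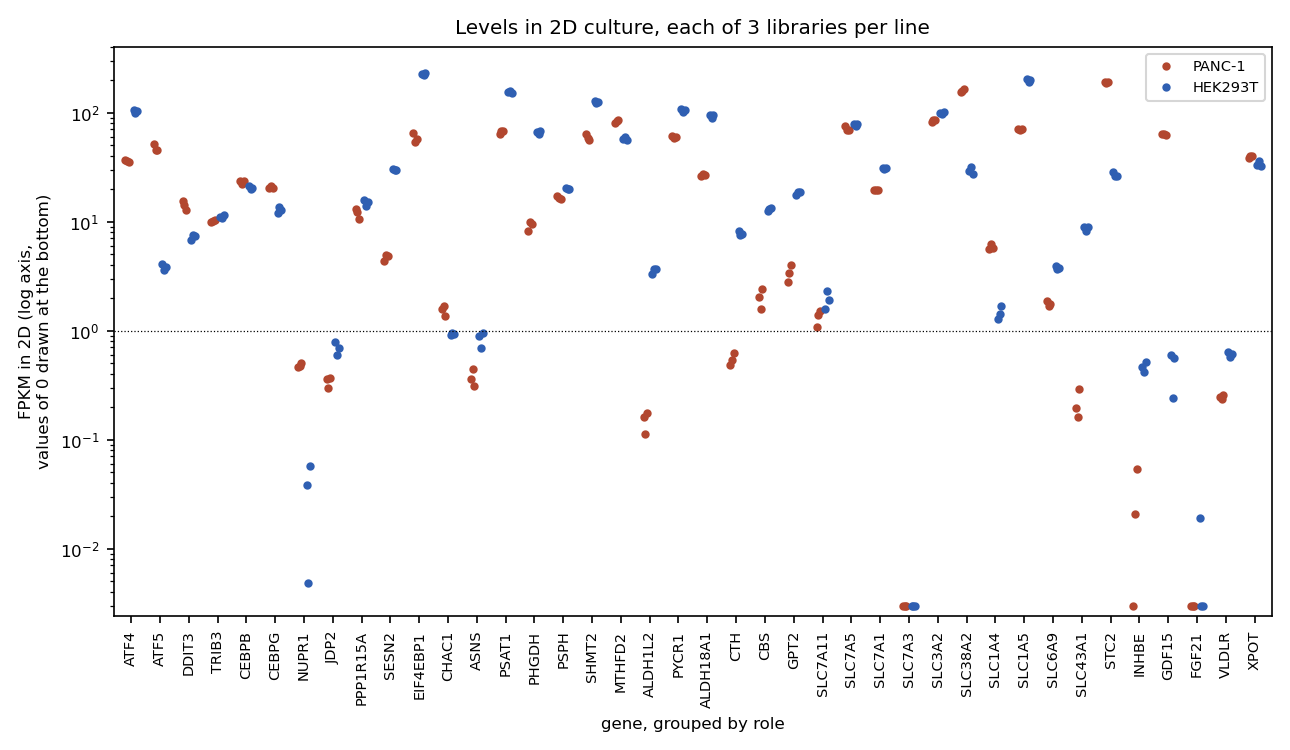
FPKM in 2D on a log axis for each of the 3 libraries per line (dots), with the 40 genes grouped by role and the dotted line at 1 FPKM. Dots of the synthesis enzymes lie higher in HEK293T for all but MTHFD2, and GDF15, ATF5, STC2 and SLC38A2 lie higher in PANC-1.

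Neighbouring pathways were counted in the same fits, with no set test, and are to be read against the shares of all genes given above, such as 53.6% higher and 32.2% lower at 30 rpm in PANC-1 and 49.6% and 35.5% in HEK293T. Among 20 cytosolic aminoacyl-tRNA synthetases, which charge tRNA with amino acids, 11 and 6 rose and fell at 30 rpm in PANC-1 (median log2 change 0.18), 12 and 6 at 1 rpm and 6 and 11 in AggreWell. In HEK293T the numbers were 14 and 6 (median 0.82), 14 and 6 and 8 and 11. EPRS1, the synthetase for glutamate and proline, averaged 65 ± 1.12 FPKM at 30 rpm and 36.8 ± 0.432 in 2D in PANC-1, and 69.9 ± 1.03 and 18.6 ± 0.571 in HEK293T. HARS1, that for histidine, fell, with 29.9 ± 1.56 FPKM at 30 rpm and 74.8 ± 3.01 in 2D in HEK293T.

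Among 17 genes of the unfolded protein response of the endoplasmic reticulum, 13 and 2 rose and fell at 30 rpm in PANC-1 (median 0.44), 9 and 8 at 1 rpm and 5 and 10 in AggreWell. In HEK293T the numbers were 8 and 7 (median 0.03), 10 and 7 and 10 and 6. DNAJB9, a co-chaperone, rose by 2.10 ± 0.08 on the log2 scale at 30 rpm in PANC-1 and 1.12 ± 0.08 in HEK293T. HERPUD1, a part of the degradation machinery, rose by 2.03 ± 0.05 and 1.24 ± 0.03. Other genes of the list were lower in HEK293T, of which CALR and CRELD2 were picked after their values were seen. CALR averaged 311.5 ± 1.96 FPKM at 30 rpm and 579.9 ± 15.1 in 2D there, and CRELD2 9.9 ± 0.168 and 20.5 ± 0.993. HSPA5, the main chaperone of the compartment, averaged 597 ± 10.3 FPKM at 30 rpm, 309 ± 2.27 at 1 rpm, 159.9 ± 3.25 in AggreWell and 238 ± 2.25 in 2D in PANC-1, and was singled out after its values were seen. Among 18 genes of the eIF2 kinases and eIF2 machinery, 8 and 7 rose and fell at 30 rpm in PANC-1 (median 0.07) and 10 and 7 in HEK293T (median 0.22). EIF2AK3, the kinase that senses unfolded protein, averaged 6.38 ± 0.149 FPKM at 30 rpm and 4.97 ± 0.0761 in 2D in PANC-1, and 5.18 ± 0.185 and 2.34 ± 0.172 in HEK293T. EIF2AK4, the sensor of uncharged tRNA, changed by 0.28 ± 0.03 in PANC-1 and 0.26 ± 0.04 in HEK293T. PPP1R15B, the constitutive counterpart of PPP1R15A, rose by 1.42 ± 0.03 in PANC-1 and 1.77 ± 0.04 in HEK293T at 30 rpm.

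At 30 rpm relatives of the members that are not on the list split evenly in PANC-1 and mostly fell in HEK293T. Of 17 tested in PANC-1, 8 and 9 rose and fell at 30 rpm, and of 23 in HEK293T 4 and 17 (median -0.17 and -0.44). ATF3, a stress factor of the leucine zipper family, rose at both speeds in both lines, averaging 14.1 ± 0.624 FPKM at 30 rpm, 5.51 ± 0.257 at 1 rpm, 0.926 ± 0.0646 in AggreWell and 1.47 ± 0.109 in 2D in PANC-1. In HEK293T it averaged 179 ± 4.49, 127 ± 2.14, 46.7 ± 0.461 and 12.7 ± 0.0607 FPKM in the same formats. At 30 rpm the log2 change in PANC-1 and HEK293T was -0.86 ± 0.06 and -1.06 ± 0.04 for cytosolic SHMT1, -1.17 ± 0.03 and -0.52 ± 0.03 for cytosolic MTHFD1, and -0.17 ± 0.03 and -0.47 ± 0.04 for mitochondrial MTHFD1L. MTHFD2L, a relative of MTHFD2, averaged 0.826 ± 0.06 FPKM at 30 rpm and 0.599 ± 0.113 in 2D in PANC-1, below the filter, and 1.34 ± 0.0492 and 2.4 ± 0.518 in HEK293T, where it fell. CHAC2, the relative of CHAC1, had log2 changes of -1.31 ± 0.07 and -0.58 ± 0.07. SLC38A1, the relative of SLC38A2, changed by -0.74 ± 0.03 in PANC-1 and 1.10 ± 0.05 in HEK293T. SHMT1, MTHFD1, MTHFD1L, MTHFD2L, EIF2AK3, MARS1 and SLC38A1 were singled out after their values were seen.

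**Figure D5:**
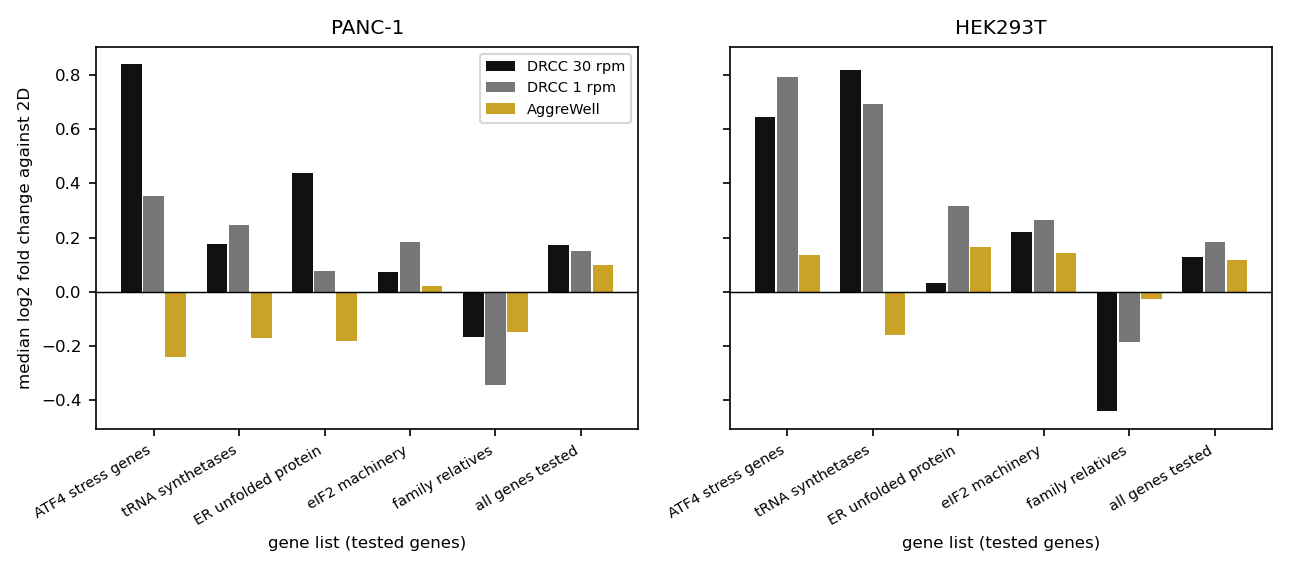
Median log2 fold change against 2D (bars) of the tested genes of each list and of all tested genes, in DRCC at 30 rpm, DRCC at 1 rpm and AggreWell, for PANC-1 (left) and HEK293T (right). The ATF4 stress genes have the highest DRCC medians of the lists in PANC-1, and in HEK293T they and the tRNA synthetases have the highest.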

How the data were processed

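RNA was sequenced in 24 libraries in 8 groups of 3, grouped by the sample labels. The authors deposited FPKM values for 26450 genes. The tools HISAT2, HTSeq, fastp and R 3.2.0 are named, per the submitters' processing notes, with no role given in the sources used here. The notes also name the build mm10 while the table holds human symbols, so no coordinates were taken from the table. FPKM scales each gene to its library total, so abundant genes shift all others. Fragments were recovered as whole multiples within a tolerance of 0.01 for 26449 of the 26450 genes. Library totals of 32021638 to 39556154 fragments limit precision mainly for genes under 1 FPKM. Strand use and the treatment of reads shared by gene copies are not given in the sources used here.

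Tests were limma 3.58.1 fits (R 4.3.3) of log2(FPKM + 1) with a variance trend, a pseudocount of 1 and genes with at least 1 FPKM in at least 3 fitted libraries. Each line was fitted over its 12 libraries, and line differences and the 2D comparison over all 24. Calls needed a Benjamini-Hochberg adjusted p under 0.05 over all genes tested, and 2-fold means a log2 change of at least 1. Tables were made in Python 3.11.15 with pandas 2.3.3. The procedure was also run on simulated data with independent noise and few changed genes. Most genes were called against 2D here, so that run does not bear on these counts of calls. Values of every library are given for ATF4, ATF5, DDIT3, ASNS and the 5 members of each role with the largest called change against 2D. The members and lists were chosen with earlier results of these data known. Alternatives were quantile normalization, median-ratio scaling, leaving out mitochondrially encoded genes, a pseudocount of 0.1, a filter at a mean of 5 FPKM or none, fits on the compared groups alone, robust shrinkage, voom on recovered fragments, a replicate block, and each library left out.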

Additional observations from a re-analysis of the deposited data

Results flagged for a closer look

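The change of some members differed between the lines by a test of the difference itself, the log2 change in PANC-1 minus that in HEK293T in limma over all 24 libraries. For AggreWell against 2D these were INHBE (-1.34 ± 0.08), CHAC1 (-1.24 ± 0.08), DDIT3 (-1.21 ± 0.08) and STC2 (-1.20 ± 0.04), of which DDIT3 and CHAC1 fell in PANC-1 and rose in HEK293T. For 1 rpm against 2D they were INHBE (-4.08 ± 0.08), CHAC1 (-2.85 ± 0.08), SLC7A11 (-2.17 ± 0.11) and ASNS (-1.75 ± 0.08), and for 30 rpm against 2D INHBE (-2.69 ± 0.08), CHAC1 (-2.31 ± 0.08), ASNS (-1.40 ± 0.08) and SLC7A11 (-1.38 ± 0.11). SLC7A11 and ASNS rose in both lines in these contrasts, by more in HEK293T, while CHAC1 moved in opposite directions. For 30 rpm against 1 rpm, a difference added after the values were seen, they were SLC1A4 (1.67 ± 0.08), PSAT1 (1.61 ± 0.04), GDF15 (1.41 ± 0.10) and INHBE (1.39 ± 0.08), where SLC1A4 and PSAT1 rose in PANC-1 and fell in HEK293T. INHBE had at most 0.222 FPKM in any PANC-1 library, so these differences rest mostly on its HEK293T values. With voom on recovered fragments the INHBE difference was -1.13 and no longer called for 30 rpm against 2D, -2.74 for AggreWell against 2D and 3.25 for 30 rpm against 1 rpm. The largest adjusted p among these 16 differences as reported was 3.9e-10 (limma on log2(FPKM + 1), Benjamini-Hochberg). The 16 were picked as the largest among called members, so small adjusted p-values follow from that choice and add no support.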

How the results depend on the processing

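Of 1184 counts of called members under alternatives, 1150 stayed within 1.5 times the reported count, and of 2376 alternative values of single members printed above, 2339 kept direction and call. Where a count moved the cause was not tested, except that a mean of at least 5 FPKM tests fewer genes. With a mean FPKM of at least 5 there were 3 higher in PANC-1 AggreWell against 2D (reported 6), 12 higher in PANC-1 1 rpm against 2D (reported 19), 4 at least 2-fold higher in PANC-1 1 rpm against 2D (reported 8) and 8 at least 2-fold higher in PANC-1 30 rpm against 2D (reported 14). Under the same setting there were 6 at least 2-fold higher in PANC-1 1 rpm against AggreWell (reported 10), 19 higher in PANC-1 30 rpm against AggreWell (reported 29), 0 at least 2-fold lower in HEK293T 30 rpm against 2D (reported 1) and 1 at least 2-fold lower in HEK293T 30 rpm against 1 rpm (reported 2). Under the same setting there were 3 at least 2-fold lower in the line difference for AggreWell against 2D (reported 5) and 0 at least 2-fold higher in the line difference for 1 rpm against 2D (reported 1). With median-ratio scaling there were 2 at least 2-fold lower in PANC-1 1 rpm against 2D (reported 1), 10 lower in PANC-1 30 rpm against 2D (reported 3), 5 lower in HEK293T 1 rpm against 2D (reported 3) and 1 at least 2-fold lower in HEK293T 1 rpm against 2D (reported 0). Under the same setting there were 2 at least 2-fold lower in HEK293T 30 rpm against 2D (reported 1). With quantile normalization there were 2 at least 2-fold lower in PANC-1 1 rpm against 2D (reported 1), 6 lower in PANC-1 30 rpm against 2D (reported 3), 5 lower in PANC-1 30 rpm against AggreWell (reported 3) and 1 at least 2-fold lower in HEK293T 1 rpm against 2D (reported 0). Under the same setting there were 2 at least 2-fold higher in the line difference for 30 rpm against 2D (reported 4) and 7 lower in the line difference for 30 rpm against 1 rpm (reported 4). With mitochondrially encoded genes left out there were 5 lower in PANC-1 30 rpm against AggreWell (reported 3), 2 at least 2-fold higher in PANC-1 30 rpm against 1 rpm (reported 4), 2 lower in HEK293T 30 rpm against 2D (reported 4) and 2 at least 2-fold higher in the line difference for 30 rpm against 2D (reported 4). With a pseudocount of 0.1 there were 5 at least 2-fold higher in HEK293T AggreWell against 2D (reported 2), 1 at least 2-fold lower in HEK293T 1 rpm against 2D (reported 0) and 1 at least 2-fold lower in HEK293T 30 rpm against AggreWell (reported 0). With voom on the recovered fragments there were 1 at least 2-fold lower in PANC-1 AggreWell against 2D (reported 0), 6 at least 2-fold higher in HEK293T AggreWell against 2D (reported 2), 1 at least 2-fold lower in HEK293T 1 rpm against 2D (reported 0) and 1 at least 2-fold lower in HEK293T 30 rpm against AggreWell (reported 0). Leaving out 1 library at a time gave 0 to 1 members at least 2-fold lower in PANC-1 30 rpm against AggreWell, with 0 without AggreWell replicate 1, and 0 to 1 in HEK293T, with 1 without 30 rpm replicate 1. Signs turned for STC2 (-0.19) and XPOT (-0.044) in PANC-1 at 30 rpm and ATF4 in HEK293T at 1 rpm (-0.086) with median-ratio scaling, and for SLC1A5 in HEK293T at 30 rpm with quantile normalization (0.24) and without mitochondrially encoded genes (0.057). In total 29 values lost their call, 12 of them when 1 library was left out, and 3 gained one. The replicate number as a block left all 68 counts within 1.5 times and ended 1 call, that of SLC1A4 in PANC-1 at 1 rpm (-0.10). With the replicate block, 25 members rose in PANC-1 and 33 in HEK293T at 30 rpm against 2D. Deviations of same-numbered libraries correlated at -0.0916 to 0.106 (median -0.0299) over 18 pairs in PANC-1 and -0.0966 to 0.43 (median 0.0729) in HEK293T. Differently numbered libraries had -0.169 to 0.181 (median 0.0163) over 36 pairs in PANC-1 and -0.32 to 0.226 (median -0.0356) in HEK293T. No label pairs libraries by number, so the main fits had no block. A shared replicate effect in HEK293T was not tested beyond the block. Depth limits members under 1 FPKM, where log2(FPKM + 1) understates a change and 1 fragment weighs most.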
